A study of Mus musculus with 18 samples.

Results

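Hlf, Mecom, Gata2, Runx1, Tal1, Lmo2, Gfi1b, Erg, Fli1 and Lyl1 encode regulators of transcription that act in blood stem cells. These 10 genes were picked by symbol from the 44349 genes of the deposited table, with no measured value in the rule. RNA-seq libraries were made from LT-HSC, the long-term stem cells of mouse bone marrow, which were sorted with a gate of Lineage- Sca-1+ c-Kit+ CD34- Flk2- cells of low CD49b surface protein. The 18 libraries make 6 groups of 3, and the mice were either wild type or knockouts of DERARE, an enhancer element distal to the Hoxb genes that responds to retinoic acid. WT carries the genotype label wild type, Wnt5a carries the label Wnt5a, KO Ctrl is labelled knockout wt control and KO Wnt5a is labelled Wnt5a knockout rescue. WT Reserve is labelled wild type reserve, and KO Reserve, labelled wild type reserve ko, was taken as knockout from its title. Wnt5a is a secreted ligand of noncanonical Wnt signalling. The labels give no age, no route, dose or duration for Wnt5a, and no statement of how reserve cells were separated from the others. They do not say that replicates came from separate animals, so the p-values measure the spread between these libraries, which may be technical. The column headings of the table hold wt or ko for all 18 libraries, with ko for KO Reserve. Wnt5a was taken as wild type from its headings, which hold wt. The headings of the 6 reserve libraries also hold the letters fl, without explanation, and those of the other 12 do not. A difference of mouse line cannot be told apart from the reserve label.

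The members belong to several families that bind the regulatory DNA of blood stem and progenitor cells together. Tal1 and Lyl1 are basic helix-loop-helix factors that bind E-box sequences as partners of E proteins, and Lmo2 is a LIM-domain protein that binds no DNA itself and bridges them, through Ldb1, to GATA factors such as Gata2. Fli1 and Erg are ETS factors, and Runx1 binds DNA with its partner Cbfb. Gfi1b is a zinc-finger repressor that recruits the demethylase Kdm1a and its cofactor Rcor1, and it is needed in the erythroid and megakaryocytic lineages. Hlf is a PAR-type leucine zipper factor and Mecom a PRDM-family zinc-finger protein, and both are known for high expression in stem cells and for their maintenance. Several members are not restricted to stem cells: Gata2 is also made in mast cells, Fli1 in megakaryocytes and endothelium, and Tal1, Lmo2 and Gfi1b in erythroid cells.

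Among reserve libraries Hlf and Mecom had the widest differences between the genotypes, and Tal1 was the called member that moved the other way. For that reason the DNA upstream of 4 of their annotated starts is shown. The 4 sequences are the 250 bases before a start, read 5′ to 3′ on the strand of the gene, from RefSeq on GRCm38.p6. Hlf lies at chr11:90390918-90391167 on the minus strand, the first Mecom start at chr3:30509760-30510009 and the second at chr3:30013205-30013454, both on the minus strand, and the first Tal1 start at chr4:115056176-115056425 on the plus strand. Capitals mark GATAA (the motif of GATA factors), its reverse complement TTATC, and the E-box, CANNTG.
Hlf: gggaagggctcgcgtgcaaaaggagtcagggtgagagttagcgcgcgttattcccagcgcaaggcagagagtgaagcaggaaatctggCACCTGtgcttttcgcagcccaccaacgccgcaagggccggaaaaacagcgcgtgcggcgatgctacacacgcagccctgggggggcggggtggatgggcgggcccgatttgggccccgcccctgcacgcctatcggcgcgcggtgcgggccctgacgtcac
Mecom, first start: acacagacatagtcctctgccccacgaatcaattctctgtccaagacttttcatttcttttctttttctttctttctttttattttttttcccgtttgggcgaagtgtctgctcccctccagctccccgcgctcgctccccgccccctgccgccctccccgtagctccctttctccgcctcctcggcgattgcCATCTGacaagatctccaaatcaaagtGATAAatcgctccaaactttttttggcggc
Mecom, second start: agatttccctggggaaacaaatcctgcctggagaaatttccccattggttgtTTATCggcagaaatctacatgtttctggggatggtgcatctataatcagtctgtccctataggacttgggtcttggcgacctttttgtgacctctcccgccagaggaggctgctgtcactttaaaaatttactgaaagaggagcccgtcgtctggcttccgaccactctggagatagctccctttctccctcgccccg
Tal1, first start: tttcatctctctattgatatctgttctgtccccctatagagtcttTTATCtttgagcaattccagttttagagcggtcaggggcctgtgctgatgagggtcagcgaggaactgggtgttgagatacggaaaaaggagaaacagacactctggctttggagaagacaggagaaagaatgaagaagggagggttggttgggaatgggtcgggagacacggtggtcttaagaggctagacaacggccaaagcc
The Hlf window held 1 E-box and no GATAA. The first Mecom window held 1 of each, and the second Mecom window and the first Tal1 window held 1 GATAA each and no E-box. The window of the second Tal1 start, which is not shown, held no GATAA and no E-box. RefSeq entries matched 8 members with 14 annotated starts, and Lmo2 and Fli1 had no entry. GATAA stood in 5 of the 14 starts (4 members), against 22.6% of 32851 promoters of the same length. The E-box stood in 6 starts (6 members), against 66.2% of all promoters. The ETS core GGAAG stood in 7 starts (6 members), against 64.1%, and the RUNX motif TGTGGT in 0, against 14.0%. Both strands were searched, and matches of different motifs may overlap. A match describes letters in the window and does not show binding.

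All 10 members passed the filter on low values. The lowest member value in any library was 1.35 FPKM, for Hlf in KO Reserve replicate 1. FPKM scales fragments to transcript length, so the levels of different genes can be set side by side. The steps between low values imply 20900000 to 41100000 fragments per library, at which a 1 kb transcript with 3 fragments would read 0.0731 to 0.144 FPKM, well below every member. KO Ctrl replicate 1, at 22600000, was the shallowest of the 12 libraries outside the reserve set. On the first principal component (53.28% of variance) the 6 reserve libraries and the remaining 12 formed separate sets. Replicates correlated on the log2 scale with Pearson r from 0.932 to 0.968. Lyl1 shares exon bases with Nfix on the opposite strand, and the library chemistry keeps no strand, so reads from the shared bases cannot be told apart. Group means of Nfix ran from 9.91 FPKM in Wnt5a to 19.5 in KO Reserve, and those of Lyl1 from 7.84 to 10.8. Mecom and Runx1 overlap the antisense genes Mecomos (mean 0.118 FPKM) and Gm26626 (mean 1.35), which stand far below them.

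Markers of other blood cells differed between the sets of libraries. The summed level of 7 megakaryocyte markers was 7358 to 30901 FPKM in the 12 libraries outside the reserve set and 78.6 to 182 in the reserve libraries. Erythroid markers, 8 genes, summed to 38.1 to 54.4 FPKM in the 12 libraries, 3321 to 4451 in WT Reserve and 5151 to 6293 in KO Reserve. Granulocyte markers, 8 genes, summed to 5.07 to 100 FPKM in the 12 libraries, 4590 to 10498 in WT Reserve and 2447 to 3664 in KO Reserve. B cell markers, 7 genes, summed to 28.2 to 71.7, 2043 to 2388 and 1553 to 1891 FPKM in the same order. The 9 markers of stem cells and of the gate summed to 328 to 426 FPKM in the 12 libraries, 259 to 376 in WT Reserve and 123 to 134 in KO Reserve, with none at 0 in every library of a group. Cd34, whose protein the gate excludes, was at 358 ± 15.2 FPKM in WT, 67.7 ± 3.35 in the wild-type reserve group and 10.6 ± 3.4 in its knockout counterpart (SD, n = 3). In such bulk libraries fewer cells of a type and less RNA per cell cannot be told apart, and the part of other cells in the results that follow was not tested.

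**Figure D1:**
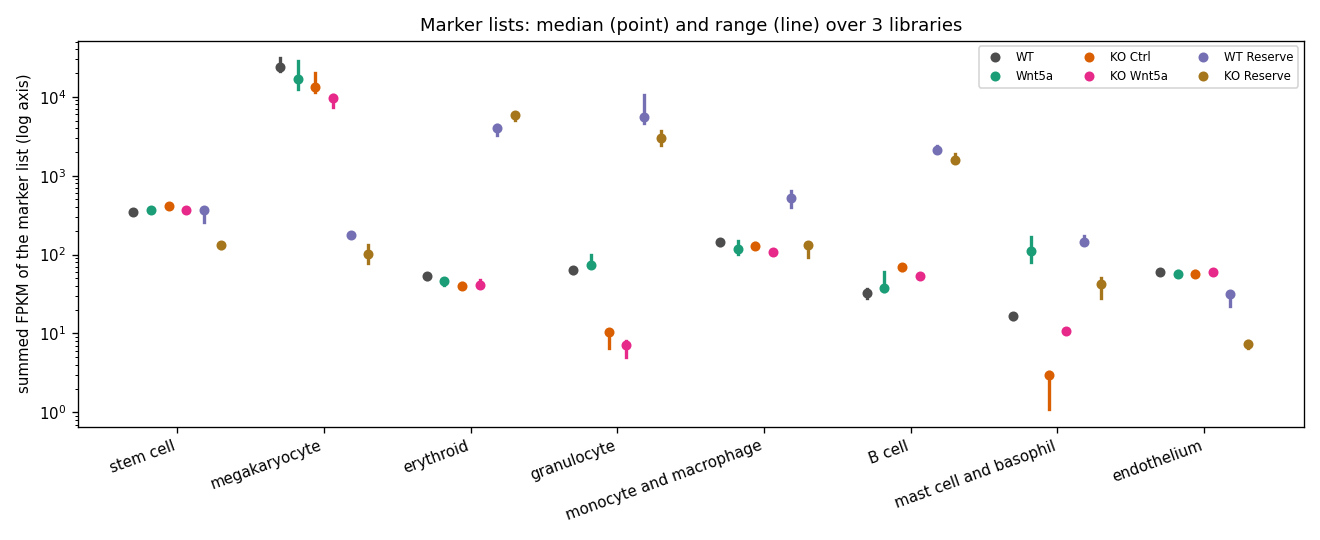
Summed FPKM (log axis) of marker lists for 8 cell types in the 6 groups; points are medians and lines run from the lowest to the highest of 3 libraries. Megakaryocyte markers lie between 7358 and 30901 FPKM outside the reserve set and between 78.6 and 182 inside it, and erythroid, granulocyte and B cell markers show the opposite order.

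The level of the members spanned a wide range within each group. Lmo2 was the most abundant in every group, from 227 ± 15 FPKM in KO Reserve to 410 ± 30.7 in KO Wnt5a, and Gfi1b was next, from 157 ± 62.5 in KO Reserve to 288 ± 34 in WT (mean ± SD, n = 3). In WT the order below them was Fli1 at 72.7 ± 5.41, Gata2 at 63.1 ± 4.22, Runx1 at 32.2 ± 1.44, Tal1 at 30.2 ± 0.656, Lyl1 at 10.5 ± 1.52, Mecom at 7.67 ± 1.7, Hlf at 4.8 ± 0.225 and Erg at 2.9 ± 0.347 FPKM. Neighbours whose libraries overlapped in that order were Fli1 and Gata2, Runx1 and Tal1, and Lyl1 and Mecom. Erg was the lowest member in WT, Wnt5a, KO Ctrl and KO Wnt5a. Gata2 passed Fli1 in KO Wnt5a, where the libraries of the pair did not overlap. In WT Reserve the 8 members below Gfi1b lay close together, from Fli1 at 18 ± 2.59 to Erg at 8.01 ± 1.31 FPKM, and each overlapped the next in order. KO Reserve had another order: Tal1, at 23.2 ± 6.22, came next after Gfi1b, with every library above those of Runx1, while Mecom at 1.97 ± 0.169 and Hlf at 1.83 ± 0.416 were lowest and overlapped each other.

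**Figure D2:**
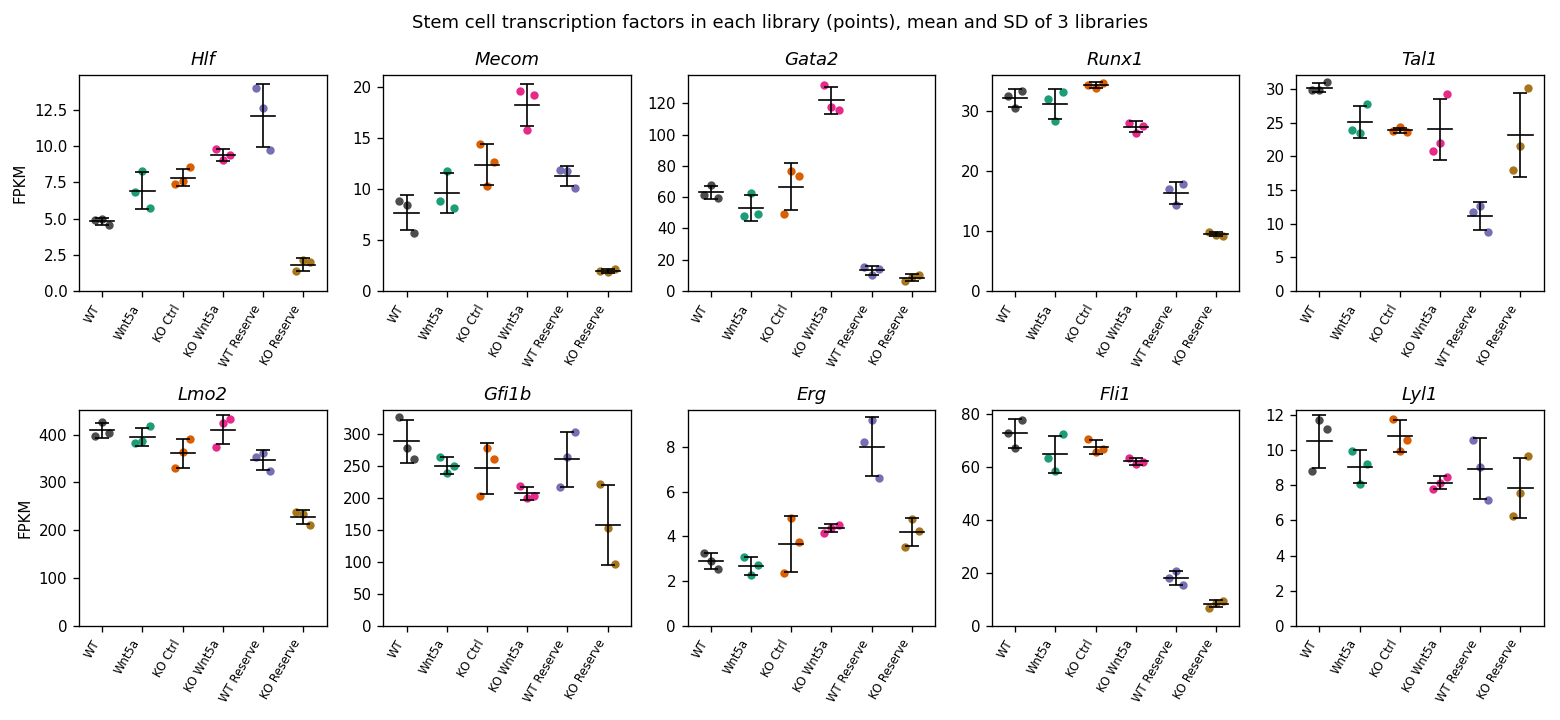
FPKM of the 10 factors in each of the 18 libraries (points) with the mean and SD of the 3 libraries of a group; each panel starts at 0. Hlf and Mecom are lowest in KO Reserve, at means of 1.83 and 1.97 FPKM, Gata2 is highest in KO Wnt5a at 122, and Fli1 and Gata2 are low in both reserve groups.

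Among reserve libraries, knockout was compared with wild type, and 8 of the 10 members fell, 1 rose and 1 did not pass the test. Hlf and Mecom fell most, from 12.1 to 1.83 and from 11.3 to 1.97 FPKM, the ETS factors Fli1 and Erg and the factors Runx1, Gfi1b, Lmo2 and Gata2 fell by smaller amounts, and Tal1 rose. A gene counts here as called where limma on log2(FPKM + 1) gave it a p under 0.05 after Benjamini-Hochberg adjustment over 14285 tested genes. Of all tested genes 12.0% were called higher and 29.3% lower in this comparison. The median log2 fold change of the members was -0.76, and that of all tested genes -0.17. The shift of all genes depends on the scaling: quantile normalization moved it to 0.03 and median-ratio scaling to 0.02, where the members' medians were -0.57 and -0.52. The split of called genes moved with it, from 1708 higher and 4191 lower to 3154 and 2764 with quantile normalization and 3166 and 2800 with median-ratio scaling.

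Hlf was at 14, 12.6 and 9.71 FPKM in WT Reserve replicates 1 to 3, and the KO Reserve libraries read 1.35, 2.11 and 2.03. All knockout libraries lay far below all wild-type ones, by a ratio of means of 6.6. Its log2 fold change was -2.21 (SE 0.15, limma adjusted p = 3.89e-08). Mecom was at 11.9, 11.8 and 10.1 FPKM in the WT Reserve libraries, against 1.95, 1.82 and 2.15 in KO Reserve. Here too the groups stood far apart and the replicates of each were close, with a ratio of means of 5.71. The log2 fold change of Mecom was -2.04 (SE 0.17, limma adjusted p = 2e-07). Both stayed called in each alternative, at log2 fold changes from -2.67 to -2.03 for Hlf and -2.46 to -1.86 for Mecom over the 9 alternatives other than leaving out a library. Leaving out any 1 library gave -2.34 to -2.08 and -2.11 to -2.01.

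The ETS factor Fli1 was at 18, 20.6 and 15.4 FPKM in wild type, against 6.87, 8.57 and 9.5 in knockout, without overlap. It fell by 1.03 on the log2 scale (SE 0.12, limma adjusted p = 6.9e-06). Erg was at 8.24, 9.19 and 6.61 FPKM in wild type and 3.53, 4.78 and 4.23 in the knockout libraries, again without overlap. It fell by 0.80 (SE 0.18, adjusted p = 0.00215). The ratio of wild-type to knockout means was 2.17 for Fli1 and 1.92 for Erg. Runx1 was at 17, 14.4 and 17.9 FPKM in wild type compared with 9.89, 9.36 and 9.22, so that every knockout library lay below every wild-type one. Its log2 fold change of -0.73 (SE 0.10, adjusted p = 2.38e-05) became -0.46 with quantile normalization and stayed called. Etv6, an ETS factor needed by adult stem cells, fell by 1.03 and Spi1, the ETS factor of myeloid and lymphoid commitment also called PU.1, by 2.14 in the same comparison (SE 0.11 and 0.20).

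The bridging protein Lmo2 was at 354, 362 and 323 FPKM in the WT Reserve libraries, while those of KO Reserve read 238, 233 and 210, without overlap. Its log2 fold change was -0.60 (SE 0.08, limma adjusted p = 2.8e-05), and -0.35 with median-ratio scaling, where it stayed called. Gfi1b was at 216, 263 and 302 FPKM in wild type and 222, 153 and 96.9 in knockout, and the groups overlapped, since KO Reserve replicate 1 lay above WT Reserve replicate 1. Its call of -0.79 (SE 0.22, adjusted p = 0.00893) rested in part on KO Reserve replicate 3, without which it was -0.48 (adjusted p = 0.0366), and a fit of these 6 libraries alone lost it (adjusted p = 0.0973). Gata2 was at 15.4, 9.98 and 14.4 FPKM in wild type, against 6.53, 9.16 and 10.3, where the highest knockout library exceeded the lowest wild-type one. Its log2 fold change was -0.56 (SE 0.19, adjusted p = 0.0234). That call was the least firm of the 8: it was lost with quantile normalization (-0.29, adjusted p = 0.218), median-ratio scaling (-0.33, 0.162), no filter (0.06), only these libraries (0.105), and without WT Reserve replicate 1 (-0.45, 0.0973), WT Reserve replicate 3 (-0.50, 0.0785) or KO Reserve replicate 1 (-0.39, 0.112).

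Tal1 moved against the other called members. It was at 11.8, 12.7 and 8.74 FPKM in wild type, and KO Reserve stood higher at 18, 21.5 and 30.1. The lowest knockout library exceeded the highest wild-type library, and the knockout replicates were the more spread of the groups. The log2 fold change was 0.99 (SE 0.17, limma adjusted p = 0.00022), and 1.24 and 1.23 with quantile normalization and median-ratio scaling. Lyl1, its close relative, was at 10.6, 9.03 and 7.15 FPKM in wild type, against 6.26, 7.59 and 9.66 in knockout, and the groups overlapped (log2 fold change -0.17, SE 0.16, adjusted p = 0.415). Epor and Klf1, erythroid genes that Tal1 and GATA factors are known to bind, rose by 0.99 and 0.62 in this comparison (SE 0.13 and 0.20). They are 2 of 10 tested known targets of the members, of which 3 were called higher and 4 lower. The erythroid marker sum, which holds Epor and Klf1, was 5151 to 6293 FPKM in KO Reserve against 3321 to 4451 in WT Reserve. Most of that sum was Car1, at 5078 ± 695 FPKM in KO Reserve and 3370 ± 459 in WT Reserve. Of 7 tested erythroid markers 5 were called higher and 0 lower, beside 12.0% and 29.3% of all tested genes. The mean of Hbb-bt was lower in KO Reserve (102 ± 44.7 FPKM) than in WT Reserve (125 ± 74.6). Between WT and WT Reserve, Tal1 and the erythroid sum went opposite ways. Tal1 had means of 30.2 and 11.1 FPKM, and the sum was 49.3 to 54.4 and 3321 to 4451. A link between Tal1 and the erythroid genes was not tested.

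**Figure D3:**
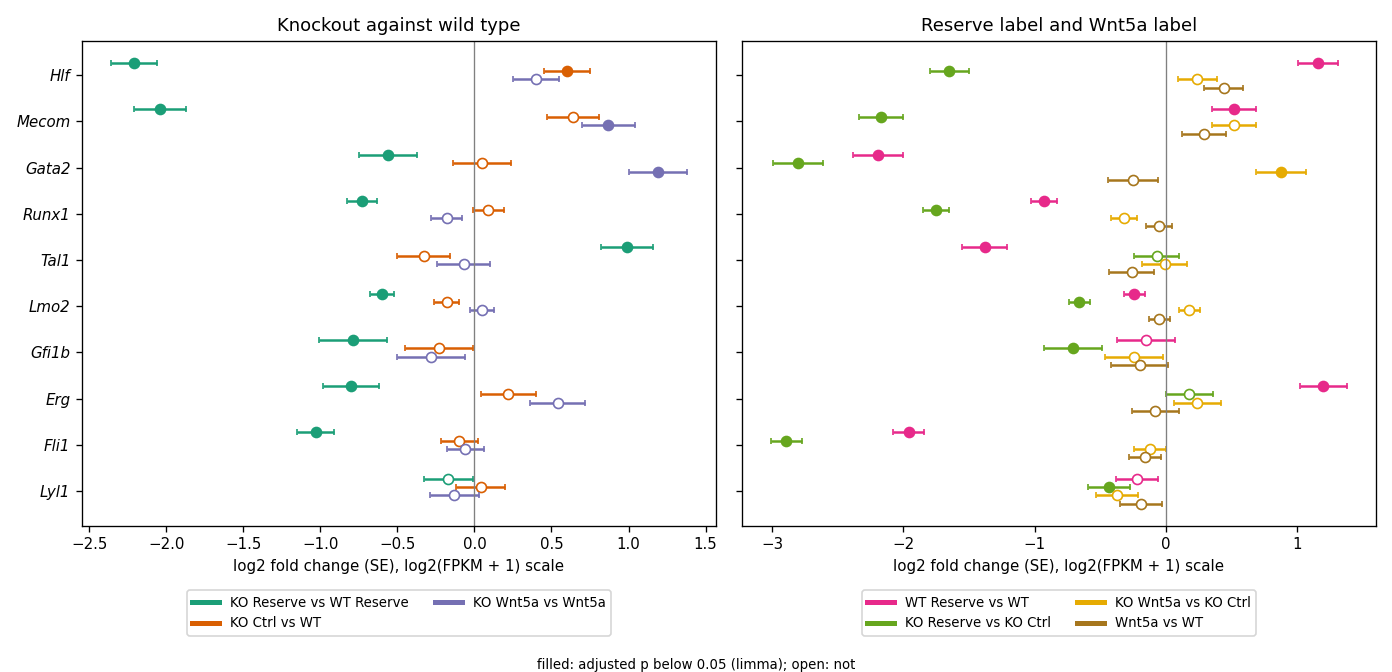
Log2 fold changes with SE on the log2(FPKM + 1) scale for the 10 factors in 7 comparisons, knockout against wild type on the left and the reserve and Wnt5a labels on the right; filled points passed an adjusted p of 0.05 in limma and open points did not. The reserve comparison of genotypes spreads from -2.21 for Hlf to 0.99 for Tal1, while most points of KO Ctrl against WT and of Wnt5a against WT are open.

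Outside the reserve set, knockout control cells were compared with wild type. Hlf rose and no other member passed the test, so that Hlf differed between the genotypes in the opposite direction to that among reserve libraries. Of all tested genes 1.53% were called higher and 1.12% lower, 218 and 160 genes, and with median-ratio scaling 190 and 316. The members' median log2 fold change was 0.05 and that of all genes 0.04. Hlf was at 4.92, 4.95 and 4.55 FPKM in WT and at 7.37, 7.59 and 8.53 in KO Ctrl, without overlap. Its log2 fold change was 0.60 (SE 0.15, limma adjusted p = 0.0444). The call sits at the threshold: it was lost when any 1 of the 6 libraries was left out (0.55 to 0.64, adjusted p = 0.0574 to 0.182), with no filter (0.0875), a pseudocount of 0.1 (0.0528), median-ratio scaling (0.53, 0.0685) and quantile normalization (0.47, 0.129). Mecom was at 8.84, 8.45 and 5.72 FPKM in WT and at 14.4, 10.3 and 12.6 in KO Ctrl. The groups did not overlap, but the difference of 0.64 (SE 0.17, adjusted p = 0.0532) missed the threshold. Lmo2 had an unadjusted p of 0.042 and an adjusted p of 0.264 at a log2 fold change of -0.18. The remaining 7 members differed by -0.33 to 0.22 on the log2 scale. Megakaryocyte markers summed to 11516 to 19826 FPKM in KO Ctrl and 20990 to 30901 in WT. Most of these sums was Pf4, at 13350 ± 3788 FPKM in KO Ctrl and 22928 ± 4775 in WT. Of the 7 markers limma called 1 lower and 0 higher. Granulocyte markers summed to 6.5 to 10.5 FPKM in KO Ctrl and 57.9 to 67.2 in WT. Most of that difference was Mpo, at 60 ± 5.91 FPKM in WT and 0.098 ± 0.152 in KO Ctrl. Elane and Lcn2, already low in WT at 0.946 ± 0.393 and 0.127 ± 0.0217, were at 0 in every KO Ctrl library. S100a8, S100a9, Ltf, Ngp and Camp had higher means in KO Ctrl. Of these 8 granulocyte genes limma called 1 higher and 1 lower.

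The difference of these genotype differences, reserve minus the other set, was tested as an interaction. It was called for 7 members, 1 higher (Tal1) and 6 lower (Hlf, Mecom, Erg, Fli1, Runx1 and Lmo2), beside 8.03% higher and 22.9% lower of all tested genes. Hlf had the largest value, -2.81 (SE 0.22, limma adjusted p = 4.69e-07), since it was higher in knockout outside the reserve set and lower within it. For Mecom it was -2.68 (SE 0.24, adjusted p = 1.73e-06). Tal1 stood at 1.31 (SE 0.24, adjusted p = 0.000656). The split over all genes, 1147 higher and 3268 lower, became 2155 and 1969 with quantile normalization and 2375 and 1952 with median-ratio scaling. Under these scalings, in that order, the values of Hlf were -2.59 and -2.56 and those of Tal1 1.63 and 1.63, while Runx1 moved from -0.82 to -0.51 in both and stayed called. The members called lower were then 5 in each: Erg lost its call with quantile normalization (-1.02 to -0.65, adjusted p = 0.0685) and Lmo2 with median-ratio scaling (-0.42 to -0.09, adjusted p = 0.62). Gata2 at -0.62 (adjusted p = 0.0872), Gfi1b at -0.56 (0.185) and Lyl1 at -0.21 (0.518) did not pass. Gata2 passed without KO Ctrl replicate 1 (-0.81, adjusted p = 0.021) or WT Reserve replicate 2 (-0.79, 0.0231), and Gfi1b without KO Reserve replicate 1 (-0.85, 0.0132).

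With the Wnt5a label in wild type, no member passed the test. Among all tested genes 0.0420% were called higher and 0.00700% lower by limma, and 1 member, Hlf, had an unadjusted p under 0.05. Hlf was at 6.82, 8.26 and 5.71 FPKM in Wnt5a, above all 3 WT libraries (log2 fold change 0.44, SE 0.15, unadjusted p = 0.011, adjusted p = 0.503). Gata2 was at 48, 62.6 and 49.1 FPKM in Wnt5a against 61.7, 67.9 and 59.8 in WT, with overlap (-0.25, SE 0.19, adjusted p = 0.801). Members differed by -0.26 to 0.44, with a median of -0.12 beside 0.02 for all genes. Mast cell and basophil markers, 5 genes, summed to 79.6 to 165 FPKM in Wnt5a and 15.2 to 17.7 in WT.

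In the knockout, the Wnt5a label went with higher Gata2. Gata2, the GATA factor of stem cells and mast cells, was the only member called in KO Wnt5a against KO Ctrl, where 0.315% of tested genes were called higher and 0.707% lower. It was at 49.5, 76.9 and 73.7 FPKM in KO Ctrl and at 132, 118 and 116 in KO Wnt5a. The lowest KO Wnt5a library lay well above the highest KO Ctrl library, and KO Ctrl replicate 1, the shallow library, was the lowest of all 6. The log2 fold change was 0.88 (SE 0.19, limma adjusted p = 0.0294), a ratio of means of 1.83. Its direction held in every alternative, but the call was lost with no filter (adjusted p = 0.106), with only these 6 libraries (0.0922), when KO Ctrl replicate 1 was left out (0.69, 0.162), and when any of replicates 1 to 3 of KO Wnt5a was (0.122, 0.0914 and 0.0884). Another 4 members had an unadjusted p under 0.05: Mecom (0.52, SE 0.17), Lmo2 (0.18, SE 0.08), Runx1 (-0.32, SE 0.10) and Lyl1 (-0.37, SE 0.16), with adjusted p from 0.179 to 0.435. Mast cell and basophil markers summed to 10.1 to 10.9 FPKM in KO Wnt5a and 1.1 to 3.21 in KO Ctrl, where Prss34 was at 0 in every library. The same sum was higher in WT (15.2 to 17.7) and Wnt5a (79.6 to 165), where Gata2 was lower, at means of 63.1 and 53.2 FPKM. The part of such cells in the Gata2 difference was not tested. Megakaryocyte markers, mostly Pf4, summed to 7358 to 10677 FPKM in KO Wnt5a and 11516 to 19826 in KO Ctrl.

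Whether the Wnt5a difference itself depended on genotype was tested as an interaction as well, and no member passed, beside 0.0210% higher and 0.0490% lower of all tested genes. Gata2 came closest, with 1.14 (SE 0.26, unadjusted p = 0.000526, adjusted p = 0.175 from limma), and it was the only member with an unadjusted p under 0.05. With library weights the value was 1.09 and passed (adjusted p = 0.0254).

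Knockout and wild type were also compared where both carried the Wnt5a label. Mecom and Gata2 rose and no member fell, beside 1.41% higher and 1.82% lower of all tested genes, 201 and 260 genes, or 115 and 321 with median-ratio scaling. Mecom was at 8.81, 11.8 and 8.12 FPKM in Wnt5a and at 19.6, 15.8 and 19.2 in KO Wnt5a, without overlap. Its log2 fold change was 0.87 (SE 0.17, limma adjusted p = 0.0089). Without Wnt5a replicate 3 it was 0.77 and missed the threshold (adjusted p = 0.0642). Gata2 had a log2 fold change of 1.19 (SE 0.19, adjusted p = 0.00194) and a ratio of means of 2.29, the widest difference among members here. Erg was at 3.1, 2.28 and 2.7 FPKM in Wnt5a and 4.16, 4.39 and 4.52 in KO Wnt5a, without overlap, yet its difference of 0.54 (SE 0.18) did not pass (adjusted p = 0.121).

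KO Wnt5a was set against untreated wild type because the label calls it a rescue of the knockout. Hlf, Mecom and Gata2 rose, at log2 fold changes of 0.84, 1.16 and 0.94 (SE 0.15, 0.17 and 0.19; limma adjusted p = 0.00221, 0.000397 and 0.00403). None fell, beside 6.80% higher and 5.03% lower of all genes. The split of 972 higher and 719 lower genes became 573 and 854 with quantile normalization and 495 and 1110 with median-ratio scaling. Hlf stood at 9.82, 9.01 and 9.38 FPKM in KO Wnt5a, above every WT library, at a ratio of means of 1.96. Mecom in KO Wnt5a also stood above every WT library, at a ratio of 2.37. None of the 3 was nearer to WT in KO Wnt5a than in KO Ctrl: means ran 4.8, 7.83 and 9.41 FPKM for Hlf, 7.67, 12.4 and 18.2 for Mecom and 63.1, 66.7 and 122 for Gata2 in WT, KO Ctrl and KO Wnt5a. The 3 were picked by their call against WT in KO Wnt5a, so this order was largely set by the choice. Among uncalled members the mean of Lmo2 was nearer to WT, at 409, 361 and 410 FPKM in the same order of groups. The means of Gfi1b, Fli1, Runx1, Lyl1 and Erg were farther, and Tal1 was at 30.2, 23.9 and 24. These comparisons share the WT or KO Ctrl libraries and are not independent of each other. Runx1 was at 28.1, 26.3 and 27.6 FPKM in KO Wnt5a, below the WT libraries at 32.5, 30.6 and 33.4, with a difference of -0.23 (adjusted p = 0.146) that passed with quantile normalization (-0.33, 0.0274) and median-ratio scaling (-0.35, 0.0293).

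Reserve and other wild-type cells differed in 8 members. Hlf, Mecom and Erg rose and Gata2, Fli1, Tal1, Runx1 and Lmo2 fell in WT Reserve against WT, beside 30.8% higher and 27.9% lower of all tested genes. The set-apart reserve libraries, their marker levels and their column headings move with this comparison, and their parts in it were not tested. Gata2 fell by 2.19 on the log2 scale (SE 0.19, limma adjusted p = 3.56e-08), from a mean of 63.1 to 13.3 FPKM, a ratio of 4.76. Fli1 was at 73, 67.1 and 77.9 FPKM in WT and at 15.4 to 20.6 in WT Reserve, without overlap, and it fell by 1.96 (SE 0.12, adjusted p = 6.85e-10). Tal1 was at 29.9, 29.8 and 31 FPKM in WT, every library above those of WT Reserve, and it fell by 1.38 (SE 0.17). Runx1 fell by 0.93 (SE 0.10). Lmo2 fell by 0.24 (SE 0.08, adjusted p = 0.0184), or by 0.38 with quantile normalization, a call lost without WT replicate 2 (adjusted p = 0.0706) or WT Reserve replicate 3 (0.0788).

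Against these, Erg was at 3.25, 2.88 and 2.56 FPKM in WT and at 6.61 to 9.19 in WT Reserve, without overlap. It rose by 1.20 on the log2 scale (SE 0.18, limma adjusted p = 2.47e-05), a ratio of means of 2.76. Hlf rose by 1.16 (SE 0.15, adjusted p = 5.87e-06), from 4.8 to 12.1 FPKM. Mecom rose by 0.52 (SE 0.17, adjusted p = 0.0144), and without WT replicate 3, its lowest WT library, the value was 0.34 and missed the threshold (adjusted p = 0.0994). Erg and Fli1, close relatives within the ETS family, thus moved in opposite directions. Gfi1b (-0.15, adjusted p = 0.569) and Lyl1 (-0.22, adjusted p = 0.243) did not pass, and their groups overlapped.

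In the knockout the same step, KO Reserve against KO Ctrl, had 8 members that fell and none that rose, beside 24.8% higher and 40.4% lower of all tested genes (3544 and 5778 genes, or 4512 and 4677 with quantile normalization and 4893 and 4494 with median-ratio scaling). Fli1 fell by 2.89 (SE 0.12, limma adjusted p = 3.02e-12) and Gata2 by 2.80 (SE 0.19), from 67.6 to 8.31 and from 66.7 to 8.66 FPKM. Mecom fell by 2.17 (SE 0.17), Runx1 by 1.75 (SE 0.10), Hlf by 1.65 (SE 0.15) and Lmo2 by 0.66 (SE 0.08), or by 0.34 with median-ratio scaling. Hlf and Mecom thus fell in the knockout where they rose in wild type, and the interaction given above tests that difference. Tal1 (-0.07, SE 0.17) and Erg (0.18, SE 0.18) did not pass, and each overlapped between the groups. Erg was called higher with quantile normalization (0.49, adjusted p = 0.0279) and median-ratio scaling (0.44, 0.0424), so that the members split 1 higher and 7 lower, and 1 higher and 6 lower, under these scalings. Gfi1b fell by 0.71 (SE 0.22), a call lost with median-ratio scaling (-0.39, adjusted p = 0.0902) and with only these 6 libraries (0.0964), and at -0.41 without KO Reserve replicate 3. Lyl1 fell by 0.43 (SE 0.16, adjusted p = 0.0244), and this was lost with quantile normalization (-0.04, 0.871), median-ratio scaling (-0.14, 0.478), only these 6 libraries (0.0586) and without KO Ctrl replicate 1 (-0.37, 0.082), KO Reserve replicate 1 (-0.30, 0.126) or KO Reserve replicate 2 (-0.42, 0.0588).

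Ratios of FPKM within a library do not depend on how libraries are scaled to each other. The pairs were chosen after the values were seen and carry no test. Erg to Fli1 stood at 0.0402 ± 0.00635 in WT, 0.0416 ± 0.00627 in Wnt5a, 0.0546 ± 0.0202 in KO Ctrl and 0.0703 ± 0.00413 in KO Wnt5a (SD, n = 3), with far higher values of 0.444 ± 0.0154 in WT Reserve, compared with 0.506 ± 0.0568 in KO Reserve. All 6 reserve libraries lay above all 12 others, and WT Reserve and KO Reserve overlapped. Hlf to Gata2 was 0.906, 1.26 and 0.673 in WT Reserve, stood at 0.207, 0.23 and 0.197 in KO Reserve and was 0.073 to 0.149 in the other 12. Tal1 to Lyl1 was 1.11, 1.41 and 1.22 in WT Reserve, the lowest of all groups, whereas KO Reserve had 2.88, 2.84 and 3.12, near the WT mean of 2.91. Gata1, the GATA factor that takes over from Gata2 as erythroid and megakaryocytic cells mature, stood to Gata2 at 1.35 ± 0.183 in WT, 1.01 ± 0.201 in KO Ctrl and 0.342 ± 0.0484 in KO Wnt5a. In WT Reserve that ratio was 7.14 ± 1.15 and in KO Reserve 13.5 ± 4.82, and the KO Wnt5a libraries lay below all others.

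**Figure D4:**
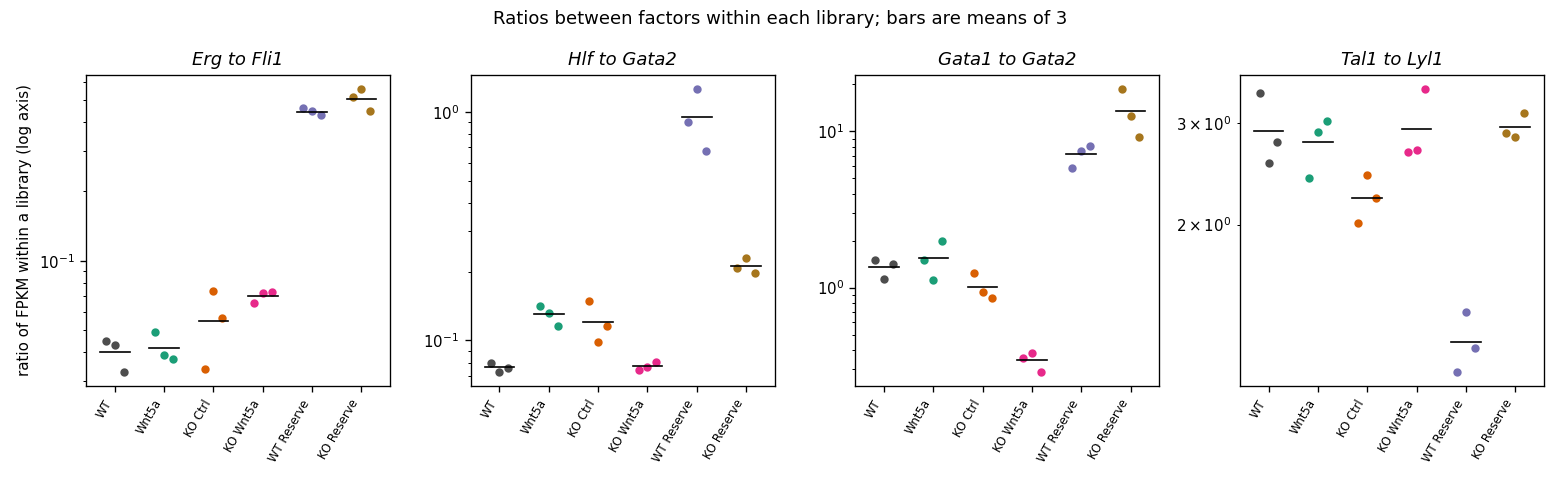
Ratios of FPKM within each library (points, log axis) for 4 pairs of factors, with the mean of 3 libraries as a bar. Erg to Fli1 is 0.0402 to 0.0703 outside the reserve set and 0.444 and 0.506 in the reserve groups, and Gata1 to Gata2 is lowest in KO Wnt5a at 0.342.

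The partners, relatives and known targets of these factors were followed as 8 lists of 52 genes, of which 49 were tested. In KO Reserve against WT Reserve 5 of the 49 rose (10.2%) and 26 fell (53.1%), beside 12.0% and 29.3% of all tested genes, with a median of -0.42. The counterparts were 4 and 0 in KO Ctrl against WT (8.16% rose, beside 1.53%), 0 and 0 in Wnt5a against WT and in KO Wnt5a against KO Ctrl, 3 and 1 in KO Wnt5a against Wnt5a (6.12% and 2.04%, beside 1.41% and 1.82%), and 8 and 6 in KO Wnt5a against WT (16.3% and 12.2%, beside 6.80% and 5.03%). For the reserve label they were 20 and 15 in wild type (40.8% and 30.6%, beside 30.8% and 27.9% of all tested genes). In the knockout they were 12 and 29 (24.5% and 59.2%, beside 24.8% and 40.4%), so the share that rose was near that of all genes. The genotype-by-reserve interaction was called higher for 2 and lower for 28 (4.08% and 57.1%, beside 8.03% and 22.9%), and the Wnt5a interaction for none in either direction.

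Complex partners of Tal1, Lyl1 and Lmo2 came first. Of 8 tested in KO Reserve against WT Reserve 1 rose and 2 fell, near the 12.0% and 29.3% of all tested genes. Their median log2 fold change was -0.12, and that of all tested genes -0.17. Ssbp3, a stabilizer of Ldb1, rose (16 ± 2.8 to 24.8 ± 4.46 FPKM, log2 fold change 0.60, limma adjusted p = 0.0331). Its relative Ssbp2 (-0.20, adjusted p = 0.0439) fell, as did the LIM protein Lmo4 (-0.58, 0.0209). Ldb1 itself was at 30.7 ± 8.34 FPKM in wild type against 35.5 ± 5.13 in knockout and did not pass. Of the 6 corepressors and Gfi1, 1 rose and 4 fell. The gene that rose was Rcor1, the cofactor recruited by Gfi1b, from 21.5 ± 5.29 to 28.6 ± 2.35 FPKM, with overlap between the groups. Gfi1, the paralogue of Gfi1b, went from 4.96 ± 2.12 to 1.66 ± 0.309 FPKM (-1.11, SE 0.22), and Hdac1 fell by 0.48. Cbfb, the DNA-binding partner of Runx1, fell by 0.61 (SE 0.09), from 41.5 ± 2.74 to 26.9 ± 0.787 FPKM, and Runx2 by 1.09 (SE 0.21). Among 7 ETS relatives 4 fell, Spi1 most, from 102 ± 8.85 to 23.6 ± 9.32 FPKM. Among relatives of Hlf and Mecom, Nfil3, a leucine zipper repressor that binds PAR-type sites, fell by 2.10 (SE 0.18) and Dbp, a PAR factor like Hlf, by 1.15 (SE 0.19), while Tef and Prdm16 did not pass.

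Of 9 homeobox and other stem cell factors 7 fell and none rose in that comparison, beside 29.3% lower and 12.0% higher of all tested genes. Meis1, a TALE homeobox partner of Hox proteins, went from 53.4 ± 2.9 to 13.5 ± 2.43 FPKM (-1.92, SE 0.11, limma adjusted p = 5.09e-09). Hoxa9 fell by 2.08 (SE 0.20), from 26.2 ± 4.54 to 5.43 ± 1.1 FPKM, and Hhex by 1.09 (SE 0.12). Myb, at 80.1 ± 10 and 78.6 ± 5.15 FPKM, and Ikzf1, at 40.3 ± 4.04 and 51 ± 1.84, did not pass. Of 10 tested known targets 3 rose and 4 fell. Procr, which encodes the stem cell surface receptor EPCR, fell by 2.92 (SE 0.21), Cd34 by 2.60 (SE 0.14) and Nfe2 by 1.39 (SE 0.09). Kit was at 28.8 ± 2.46 and 29.5 ± 1.16 FPKM and did not pass. Several of these targets also stand in the marker lists given above.

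Outside the reserve set the called partners in KO Ctrl against WT were Myb (0.73, SE 0.12), Kit (0.86, SE 0.18), Hoxa9 (0.86, SE 0.20) and Hhex (0.47, SE 0.12). Myb went from 29 ± 1.56 FPKM in WT to 48.7 ± 1.74 in KO Ctrl and 53.7 ± 3.17 in KO Wnt5a, and Kit from 15.7 ± 3.56 to 29.4 ± 5.92 and 28.9 ± 3.83. Gata1 went the other way from Gata2: it was at 84.7 ± 7.31 FPKM in WT and 41.8 ± 7.26 in KO Wnt5a, a fall of 1.01 (SE 0.17, limma adjusted p = 0.00119). Against KO Ctrl, at 65.2 ± 5.54, its difference of -0.64 did not pass (adjusted p = 0.0924). Itga2b, a megakaryocytic target, fell by 0.93 in KO Wnt5a against WT (SE 0.21). In WT Reserve against WT the erythroid factor Klf1 rose by 6.84 (SE 0.20), from 0.555 ± 0.115 to 178 ± 24.4 FPKM, and Itga2b fell by 4.98 (SE 0.21), from 478 ± 54.8 to 14.1 ± 1.22. Ikzf1 rose there by 2.28 (SE 0.15), Dbp by 2.08 (SE 0.19) and Ets1 by 1.72 (SE 0.15).

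Members also differed in how their levels ran across libraries. These are Pearson correlations of log2(FPKM + 1) given as descriptions, over 18 libraries that share groups and reserve label. Hlf and Mecom ran together, with r of 0.911 over 18 libraries and 0.904 over the 12 outside the reserve set. Runx1 and Fli1 had r of 0.976 and 0.724. Gata2 and Fli1 had r of 0.923 over 18 libraries and -0.517 over the 12, and Erg had negative values with Tal1 (-0.749) and Fli1 (-0.518) over the 18. Among 8091 other genes with a mean of at least 5 FPKM, the pattern most like that of Hlf was Krt18 (r 0.963) and then Stat4 (0.955). For Mecom these were Pxylp1 (0.959) and Rassf5 (0.952), for Gata2 Dnmt3b (0.988) and Man2b1 (0.986), and for Runx1 Zyx (0.992) and Trim47 (0.99). Fli1 was most like Ppic and Gucy1a1 (0.995 each), Lmo2 like Fxyd5 (0.966) and Anxa5 (0.965), and Tal1 like Ywhag (0.96) and Pomp (0.929). Erg was most like Xaf1 (0.936) and Trim30a (0.918), and Gfi1b like Ppp1ca (0.901) and Smarce1 (0.899). Lyl1 had the weakest likeness, with Sugp2 at 0.775 and Was at 0.719.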

How the data were processed

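The members and gene lists were chosen with earlier results of these data known. Per the labels' protocols, amplification used SMARTer ultra low input reagents, followed by Nextera chemistry, which keeps no strand. The build mm10 and the tools TopHat2 2.0.10, Cufflinks and CASAVA 1.8.2 are named in the submitters' processing notes. The authors deposited 1 table of 44349 genes whose values are FPKM by their range and steps; the header names no unit. Depth was inferred from low values of 12941 single-transcript genes, and floors cover counting error only.

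Positions came from GENCODE M21 on GRCm38 and matched 43938 identifiers, with the deposited symbol for 411. Genes with a missing value, 16, were left out. limma 3.58.1 in R 4.3.3 (trend and robust moderation) was fitted to log2(FPKM + 1), a pseudocount of 1 that understates changes of low genes, over 14285 genes that reached 1 FPKM in 3 or more of the 18 libraries, with 1 mean per group, 10 comparisons and no replicate block. The fit was tested on simulated data. Named were all 10 members, the 2 genes most like each, and up to 3 called partners of smallest p per list and comparison; other partners were named after their values were seen. A few partners that the rule names are not reported here. Cbfa2t3 and Zfpm1 were not analysed here, and Csf1r did not pass the filter. Marker lists held 9 stem cell, 4 progenitor, 8 granulocyte, 6 monocyte, 8 erythroid, 7 megakaryocyte, 7 B cell, 4 T and NK cell, 5 mast cell and basophil and 6 endothelial genes. Sums not given above were, in WT, WT Reserve and KO Reserve, 376 to 407, 329 to 385 and 120 to 170 FPKM for progenitor, 131 to 151, 396 to 637 and 92.7 to 137 for monocyte, 56.9 to 59.2, 260 to 335 and 121 to 146 for T and NK cell, and 56.9 to 59.8, 22.1 to 32.7 and 6.5 to 7.99 for endothelial markers. Summaries and figures used pandas 2.3.3, numpy 2.4.6 and matplotlib 3.10.9 in Python 3.11.15. Alternatives are given in the closing section.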

Additional observations from a re-analysis of the deposited data

Results flagged for a closer look

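The genotype difference among reserve libraries differed from that among the other libraries for 7 members, by the interaction test in limma over all tested genes. The values, on the log2 scale, are the difference in reserve cells minus the difference outside them. Hlf stood at -2.81, with -2.21 among reserve libraries and 0.60 outside. Mecom stood at -2.68, from -2.04 and 0.64. Erg was at -1.02, from -0.80 and 0.22, a call lost with quantile normalization (-0.65, adjusted p = 0.0685). Fli1 was at -0.93, from -1.03 and -0.10. Runx1 was at -0.82, from -0.73 and 0.09, and at -0.51 with quantile normalization and with median-ratio scaling. Lmo2 was at -0.42, from -0.60 and -0.18, a call lost with median-ratio scaling (-0.09, adjusted p = 0.62). Tal1 was at 1.31, from 0.99 and -0.33. Groups of 3 libraries are too small for a rule that flags single outlying libraries, so none was applied. Fits that left out 1 library at a time were made and are counted in the section that follows.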

How the results depend on the processing

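Of 100 results, 10 members in 10 comparisons, 39 were called. Over the alternatives other than leaving out a library, called results stayed called in 336 fits and lost the call in 19, and uncalled ones stayed so in 578 and passed in 17. Leaving out 1 library kept the call in 256 fits and lost it in 20, and 3 uncalled results passed. No called result changed sign, and 34 of 1039 uncalled fits did while staying uncalled. The number of members called in KO Ctrl against WT was 1, and it became 0 with a pseudocount of 0.1, no filter, quantile normalization, median-ratio scaling or a replicate block, 2 with a mean of at least 5 FPKM or library weights, and 0 to 0 when a library was left out. In KO Wnt5a against KO Ctrl the count was 1, and 0 with no filter or only the libraries of the comparison, and 0 to 1 when a library was left out. In KO Wnt5a against Wnt5a it was 2, with 3 under library weights and 1 to 2 when a library was left out. In KO Wnt5a against WT it was 3, with 7 under library weights, 5 with only the libraries of the comparison, and 4 with quantile normalization, median-ratio scaling or without the reserve libraries. Library weights gave 1 in Wnt5a against WT and 1 in the Wnt5a interaction, both 0 otherwise. The cause was not tested. Over all genes, KO Ctrl against WT had 378 calls, with 1480 under library weights, 231 with no filter, 769 without the reserve libraries and 132 to 461 when a library was left out. Wnt5a against WT had 7, with 1541 under library weights, 3 or 4 with median-ratio scaling, quantile normalization, a mean of at least 5 FPKM or plain moderation, and 3 to 16 by leaving out a library. KO Wnt5a against KO Ctrl had 146, with 67 at a mean of at least 5 FPKM, 77 with no filter and 72 with only its libraries, and 65 to 156 by leaving out one. KO Wnt5a against Wnt5a had 461, with 1548 under library weights, 266 with no filter, 729 without the reserve libraries and 146 to 454. KO Wnt5a against WT had 1691, with 3697 under library weights, 2555 with only its libraries and 690 to 1158. The Wnt5a interaction had 10, with 54 under library weights, 1 at a mean of at least 5 FPKM, 16 with no filter and 7 to 22. KO Reserve against WT Reserve had 5899, and 3720 with only its libraries.

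Equal replicate numbers do not pair the libraries by the labels, and same-numbered libraries of different groups had residual correlations of -0.0917 to 0.1 in 45 pairs, with 5 of 18 libraries nearest to their own number. With the replicate block the members called in KO Ctrl against WT were 0, as Hlf had an adjusted p of 0.055 at 0.60, and 394 genes in all. The block moved no other count of members. Fitting only the 12 libraries without the reserve label was chosen after the data were seen, and it added Gfi1b in KO Wnt5a against WT (-0.47, adjusted p = 0.0165).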
